A study of Homo sapiens with 12 samples.

Results

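Transcript levels of target genes are a common readout of the transcription factor p53, and 9 of the 23398 gene entries of the deposited table are described here: CDKN1A, MDM2, ZMAT3, SESN1, SESN2, DDB2, GDF15, BBC3 and FAS. They were chosen by symbol as textbook targets of p53, with earlier results of these data known. All 9 passed the filter on low counts that left 14324 genes for testing. The cells were human brain microvascular endothelial cells (HBMEC), the lining cells of small brain vessels, bought from a commercial supplier. They were transfected for 48 h with siRNA against GLUT1 (siGlut1), the glucose transporter encoded by SLC2A1, or with a control siRNA (non-silencing), and the labels put them in control or high glucose. The 4 groups are therefore non-silencing siRNA in control glucose (3 libraries), siGlut1 in control glucose (3 libraries), non-silencing siRNA in high glucose (2 libraries used of 3) and siGlut1 in high glucose (3 libraries). All cells were transfected, so that no group shows untransfected cells, and each siRNA is represented by 1 name, so that an effect of the GLUT1 loss and an effect of that siRNA on other transcripts cannot be told apart. Not given in the sources used here: glucose concentrations, the duration of the high-glucose treatment, and whether replicates are separate cultures. If the replicates are technical, p-values reflect technical spread alone.

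p53 is held low in unstressed cells by MDM2, a ubiquitin ligase that marks it for degradation and that p53 itself induces. When DNA damage, ribosomal stress or nutrient stress frees p53, it binds pairs of a short palindromic half-site and raises genes of several programmes. CDKN1A (p21) blocks cyclin-dependent kinases, DDB2 recognises ultraviolet lesions for nucleotide excision repair, ZMAT3 is an RNA-binding zinc-finger protein that acts on splicing and mRNA stability, and SESN1 and SESN2 are sestrins that restrain mTORC1 when amino acids are short. GDF15 is a secreted stress cytokine, BBC3 (PUMA) neutralises the survival proteins of the BCL2 family, and FAS is a death receptor. In endothelium p53 is known for senescence and for limiting vessel growth, and several of these genes also answer to other factors: SESN2 and GDF15 to ATF4 of the integrated stress response, FAS to interferon.

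The best matches to the p53 recognition sequence near the start sites are shown, because p53 acts on its targets through such sequences, for the 3 genes that were lower with siGlut1 and for the 2 other genes with the highest matches. Windows of 300 bases (250 before and 50 after each start, RefSeq, build GRCh38.p14) were searched for 2 copies of the p53 half-site with 0 to 13 bases between them, a motif that reads the same on both strands. Only pairs in which both copies held the fixed C and the fixed G of the half-site were scored, for the members and for all windows alike. A pair that lacks 1 of these bases was not counted, even if it meets more of the 20 positions. All 9 members matched a window, with 1 to 4 windows per gene. Capitals mark the half-sites and lower case any bases between them.
DDB2: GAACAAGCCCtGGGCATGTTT
MDM2: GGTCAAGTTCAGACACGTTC
FAS: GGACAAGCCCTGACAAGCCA
SESN1: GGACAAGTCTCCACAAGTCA
ZMAT3: GGGCCTGCTCcgccaaGCACATGCGC
The DDB2 match, at chr11:47214979-47214999 on the plus strand, meets the motif at 20 of 20 positions and overlaps an annotated exon and UTR. Such a match was found in 10 of the 35116 windows (0.0285%). The MDM2 match (chr12:68808923-68808942, plus strand, intronic) and the FAS match (chr10:88991309-88991328, plus strand, overlapping an exon) each meet 18 of 20 positions, which 2.93% of all windows reach. The SESN1 match (chr6:109009018-109009037, minus strand, intronic) and the ZMAT3 match (chr3:179071867-179071892, minus strand, overlapping an exon and UTR) each meet 17, which 12.8% of windows reach. The best matches among pairs with these fixed bases were 17 of 20 in GDF15, 16 in CDKN1A, 15 in BBC3 and 13 in SESN2. The percentages count single windows, while the match of a gene is the best over all its windows, so they are not shares of genes. MDM2 had 4 windows, FAS and SESN1 3 each, and DDB2 and ZMAT3 2 each. A match describes letters in these windows and not binding, and elements of these genes that lie farther away were not searched.

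The table gives counts and RPKM per library, with totals of 40135082 to 90536476 counts (median 49686182). The deposited column of replicate 2 of the non-silencing high-glucose group matches the mean of replicates 1 and 3 in 23397 of 23398 counts (to within 0.5), so it holds no measurement of its own and was left out. The targeted transcript SLC2A1 was lower in both siGlut1 groups, by 1.58 ± 0.13 on the log2 scale (SE) in control glucose, from 23.9 ± 1.7 to 7.96 ± 1.49 CPM (counts scaled to a common library total; SD, n = 3 and 3). All 10 endothelial markers were above 1 CPM in every group, while the 5 leukocyte and microglia markers and the 4 epithelial markers were below it. Of the remaining lists, 1 marker each of the astrocyte, neuron and oligodendrocyte lists was above 1 CPM, while the astrocyte marker AQP4 was at 0 in every library. Of 5 fibroblast markers, COL1A2 was above 1 CPM in every group. DCN exceeded 1 CPM only with non-silencing siRNA in control glucose, where it reached 1.16 CPM. The summed level of the 5 ran from 6.70 to 24.1 CPM with non-silencing siRNA and from 13.4 to 35.7 CPM with siGlut1 in control glucose, and from 11.02 to 19.6 against 18.5 to 39.2 CPM in high glucose. Most of it was COL1A2 (0.87 higher with siGlut1 on average on the log2 scale, edgeR adjusted p = 0.189). Of the 5 markers, 2 were higher and 3 lower with siGlut1 on average. Markers of pericytes and smooth muscle were present in part: 3 of 8 were above 1 CPM, and DES and KCNJ8 were at 0 in every library of some groups. Their summed level ran from 1845 to 2170 CPM with non-silencing siRNA and from 1516 to 1622 CPM with siGlut1 in control glucose, and from 2378 to 2443 against 1704 to 2043 CPM in high glucose. RGS5 made up nearly all of that sum. It fell by 0.34 on the log2 scale with siGlut1 in control glucose (edgeR adjusted p = 0.0484) and by 0.35 on average (adjusted p = 0.00394). Of the 5 tested markers of this list, 3 were higher and 2 lower with siGlut1 on average. PDGFRB reached at most 0.363 CPM and CSPG4 at most 0.202 CPM in any library. The part of the RGS5 shift in the results that follow was not tested. In these bulk libraries, fewer cells of a type and less RNA per cell cannot be told apart.

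CDKN1A and GDF15 were the most abundant of the 9 genes per unit of length. Over the 11 libraries, CDKN1A averaged 307.8 RPKM (range 278 to 360), which placed it at the 99.1 percentile of entries listed above 0, and GDF15 averaged 152 RPKM (119 to 192). MDM2 followed with 42 RPKM (37.0 to 47.0) and DDB2 with 38.0 (33.4 to 46.4), ranges that overlap. ZMAT3 averaged 14.8 RPKM (8.98 to 19.9), BBC3 13.2 (9.95 to 18.04), SESN2 11.5 (9.98 to 13.3) and SESN1 11.3 (8.93 to 13.5). These 4 genes overlapped each other throughout, so their order is not separated from the spread of the libraries. FAS was the lowest at 6.16 RPKM (5.09 to 7.45), and its range lay below those of the other 8 genes. Even FAS held 672 to 1672 counts in a library as deposited, and CDKN1A 33052 to 72260. All counts used are even, for which no source gives a reason, so the number of fragments they stand for is not known.

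**Figure D1:**
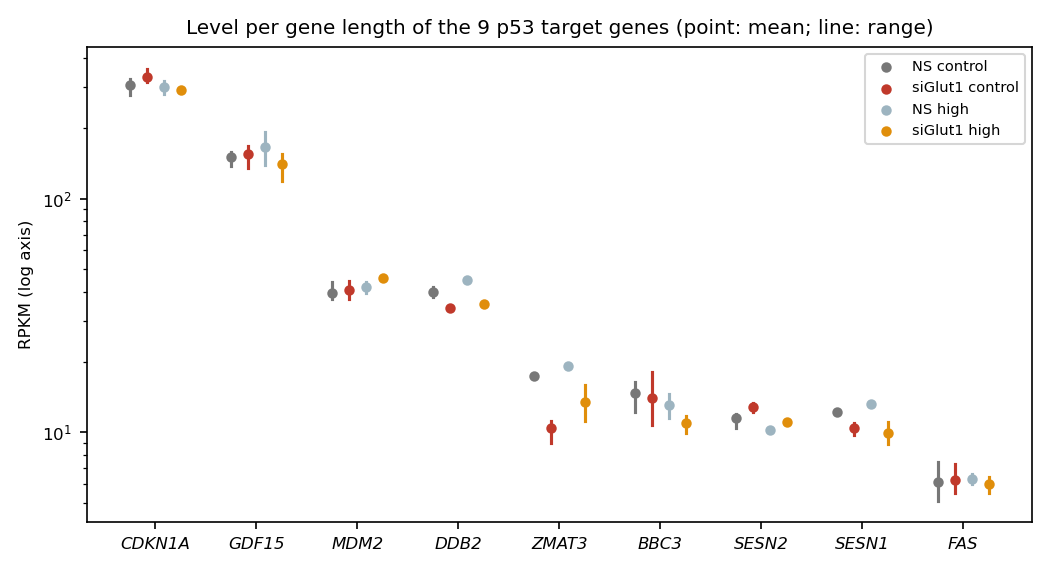
Level per gene length (RPKM, log axis) of the 9 genes, with a point for the mean and a line for the lowest to highest library of each of the 4 groups. CDKN1A and GDF15 lie apart at the top and FAS at the bottom, and ZMAT3, DDB2 and SESN1 show the gap between non-silencing and siGlut1 groups.

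ZMAT3 showed the largest difference of the 9 genes between siGlut1 and non-silencing cells. The gene spans chr3:178735011-178789656 (hg19). In control glucose, the non-silencing libraries held 166, 173 and 163 CPM and the siGlut1 libraries 109, 108 and 86.5 CPM. In high glucose they held 189 and 178 CPM against 155, 108 and 127 CPM. Every siGlut1 library lay below every non-silencing library of its medium, and 1 library, siGlut1 in high glucose replicate 1, stood closer to the non-silencing cells than the other 2. The group means fell from 167 ± 5.4 to 101.3 ± 13 CPM (SD, n = 3 and 3) in control glucose, a log2 fold change of -0.72 ± 0.12 (SE) or 0.605-fold (edgeR quasi-likelihood test, adjusted p = 0.0126). In high glucose the means were 183 ± 7.5 (n = 2) and 130.2 ± 24 CPM (n = 3). That difference, -0.49 ± 0.14 on the log2 scale with a 95% interval of -0.79 to -0.20, did not pass the threshold of 0.05 (edgeR adjusted p = 0.0674). Without siGlut1 replicate 1 in high glucose it was -0.64 (adjusted p = 0.0331), and without siGlut1 replicate 3 in control glucose, which enters the shared estimate of the spread, it was -0.49 (adjusted p = 0.0442). Averaged over both media, ZMAT3 fell by 0.61 ± 0.09 on the log2 scale (0.656-fold, edgeR adjusted p = 0.00189).

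DDB2, the damage-recognition subunit whose window holds the full p53 site shown above, was also lower with siGlut1, by less than ZMAT3. It lies at chr11:47236493-47260769 (hg19). Non-silencing libraries held 77.5, 75.1 and 79.2 CPM in control glucose against 66.6, 68.1 and 66.1 CPM with siGlut1. In high glucose they held 89.1 and 84.1 CPM against 71.9, 67.5 and 69.9 CPM. The groups did not overlap in either medium, and the libraries of a group lay close together. The log2 fold change was -0.21 ± 0.06 (95% interval -0.34 to -0.08, edgeR adjusted p = 0.0857) in control glucose, which missed the threshold, and -0.31 ± 0.07 in high glucose (0.806-fold, adjusted p = 0.0256), which passed it. The high-glucose call was lost when any 1 of the 5 high-glucose libraries was left out, with log2 fold changes of -0.35 to -0.26 and adjusted p from 0.054 to 0.22. The average over both media fell by 0.26 ± 0.04 (0.835-fold, edgeR adjusted p = 0.00343) and kept its call under all 18 alternatives run.

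SESN1 was lower with siGlut1 as well. It lies at chr6:109307640-109415708 (hg19). In control glucose the libraries held 45.9, 47.9 and 46.0 CPM with non-silencing siRNA and 41.2, 42.6 and 37.3 CPM with siGlut1. In high glucose they held 51.1 and 49.2 CPM against 42.7, 34.4 and 38.2 CPM. The groups did not overlap in either medium. The difference was -0.21 ± 0.09 in control glucose (edgeR adjusted p = 0.236), -0.38 ± 0.10 in high glucose (0.766-fold, adjusted p = 0.0467) and -0.30 ± 0.06 on average (0.815-fold, adjusted p = 0.0113), all on the log2 scale. The high-glucose call lay just inside the threshold and was lost on leaving out any of 8 libraries, with adjusted p up to 0.263, and also with DESeq2 size factors (0.0508) and with no filter on low counts (0.0544). Those 8 were the 2 non-silencing libraries and siGlut1 replicates 2 and 3 in high glucose, and replicates 1 and 2 of both siRNAs in control glucose. The averaged call was lost without non-silencing replicate 1 in high glucose (-0.28, adjusted p = 0.06).

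SESN2, the other sestrin of the set and a target of ATF4 as well as p53, lay on the opposite side. It is at chr1:28585963-28609002 (hg19). Libraries held 44.7, 45.2 and 37.8 CPM with non-silencing siRNA and 46.3, 50.3 and 48.0 CPM with siGlut1 in control glucose. In high glucose they held 36.7 and 38.3 CPM against 41.2, 42.2 and 40.8 CPM. Every siGlut1 library was above every non-silencing library of its medium, by a margin of about 1 CPM in control glucose. The difference did not pass the threshold in control glucose (0.18 ± 0.08 on the log2 scale, edgeR adjusted p = 0.264), in high glucose (0.14, adjusted p = 0.398) or on average (0.16 ± 0.06, 95% interval 0.03 to 0.29, adjusted p = 0.0936).

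The ratio of the paralogs sets SESN1 and SESN2 against each other within a library, where sequencing depth cancels. The SESN1 to SESN2 ratio of CPM was 1.03, 1.06 and 1.22 in non-silencing and 0.889, 0.847 and 0.777 in siGlut1 libraries in control glucose. In high glucose it was 1.39 and 1.29 against 1.04, 0.816 and 0.937. No siGlut1 library reached a non-silencing library of its medium. The log2 ratio was lower with siGlut1 by -0.39 in control glucose and -0.53 in high glucose. This pair was chosen after its values were seen, so the ratio is a description with no test. A ratio shows unequal change of the genes, not which one changed. SESN3, the remaining sestrin and not among the 9 genes, differed by 0.25 on the log2 scale on average (edgeR adjusted p = 0.521).

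**Figure D2:**
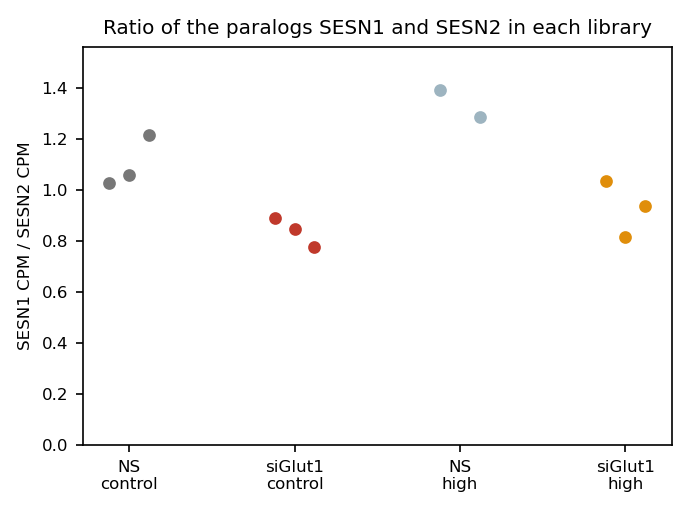
Ratio of SESN1 CPM to SESN2 CPM in each of the 11 libraries (points), by group. The siGlut1 libraries sit between 0.777 and 1.04, each below the non-silencing libraries of the same medium, which run from 1.03 to 1.39.

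CDKN1A, the cyclin-dependent kinase inhibitor most often used to read p53 activity, did not pass the test in any comparison. It lies at chr6:36644237-36655116 (hg19). The control-glucose libraries held 795, 836 and 687 CPM with non-silencing siRNA and 813, 921 and 805 CPM with siGlut1. In high glucose they held 697 and 797 CPM against 719.8, 753 and 765 CPM. The groups overlapped in both media. The log2 fold change of siGlut1 against non-silencing was 0.13 (95% interval -0.06 to 0.32, edgeR adjusted p = 0.485) in control glucose and -0.0025 (-0.22 to 0.21, adjusted p = 0.992) in high glucose. A change of the size seen for ZMAT3 in control glucose lies outside both intervals.

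MDM2, the ubiquitin ligase of the negative feedback loop, likewise did not pass. It lies at chr12:69201971-69239212 (hg19). Control-glucose libraries held 288, 294 and 334 CPM with non-silencing siRNA and 324, 291 and 347 CPM with siGlut1, and these groups overlapped. In high glucose 339 and 304 CPM stood against 369, 353 and 356 CPM, where siGlut1 was above in all 3 libraries. The log2 fold changes were 0.07 (95% interval -0.11 to 0.25, edgeR adjusted p = 0.715) in control glucose, 0.16 (-0.04 to 0.36, adjusted p = 0.357) in high glucose and 0.12 (-0.02 to 0.25, adjusted p = 0.242) on average.

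GDF15, the secreted stress cytokine, overlapped between the siRNA groups in both media. It lies at chr19:18496968-18499986 (hg19). Its CPM values were 200.4, 177 and 194 with non-silencing siRNA and 175, 215 and 205 with siGlut1 in control glucose, and 174 and 241 against 153, 198 and 187 in high glucose. The siRNA differences were 0.06 (95% interval -0.23 to 0.35, edgeR adjusted p = 0.868) in control glucose and -0.21 (adjusted p = 0.459) in high glucose.

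The death genes BBC3 and FAS were the least abundant members by counts and gave the widest intervals. BBC3, at chr19:47724079-47736023 (hg19), held 36.4, 35.2 and 26.4 CPM with non-silencing siRNA and 30.1, 40.4 and 23.9 CPM with siGlut1 in control glucose. In high glucose it held 25.1 and 32.1 CPM against 26.3, 22.1 and 24.7 CPM. The siRNA differences were -0.05 (95% interval -0.45 to 0.35, edgeR adjusted p = 0.925) and -0.23 (adjusted p = 0.568), with overlapping groups. FAS, at chr10:90750288-90775542 (hg19), held 14.4, 17 and 20.6 CPM against 15.9, 17.2 and 20.7 CPM in control glucose. In high glucose it held 16.8 and 18.6 against 15.8, 17.04 and 18.5 CPM. The groups nearly coincided, with an average difference of 0.00 (95% interval -0.23 to 0.23, edgeR adjusted p = 0.999). The FAS entry overlaps ACTA2 (19.04 to 23.6 CPM) and the antisense FAS-AS1 (at most 0.122 CPM). No source names the strand setting of the counting, so reads in the overlap cannot be assigned with certainty.

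**Figure D3:**
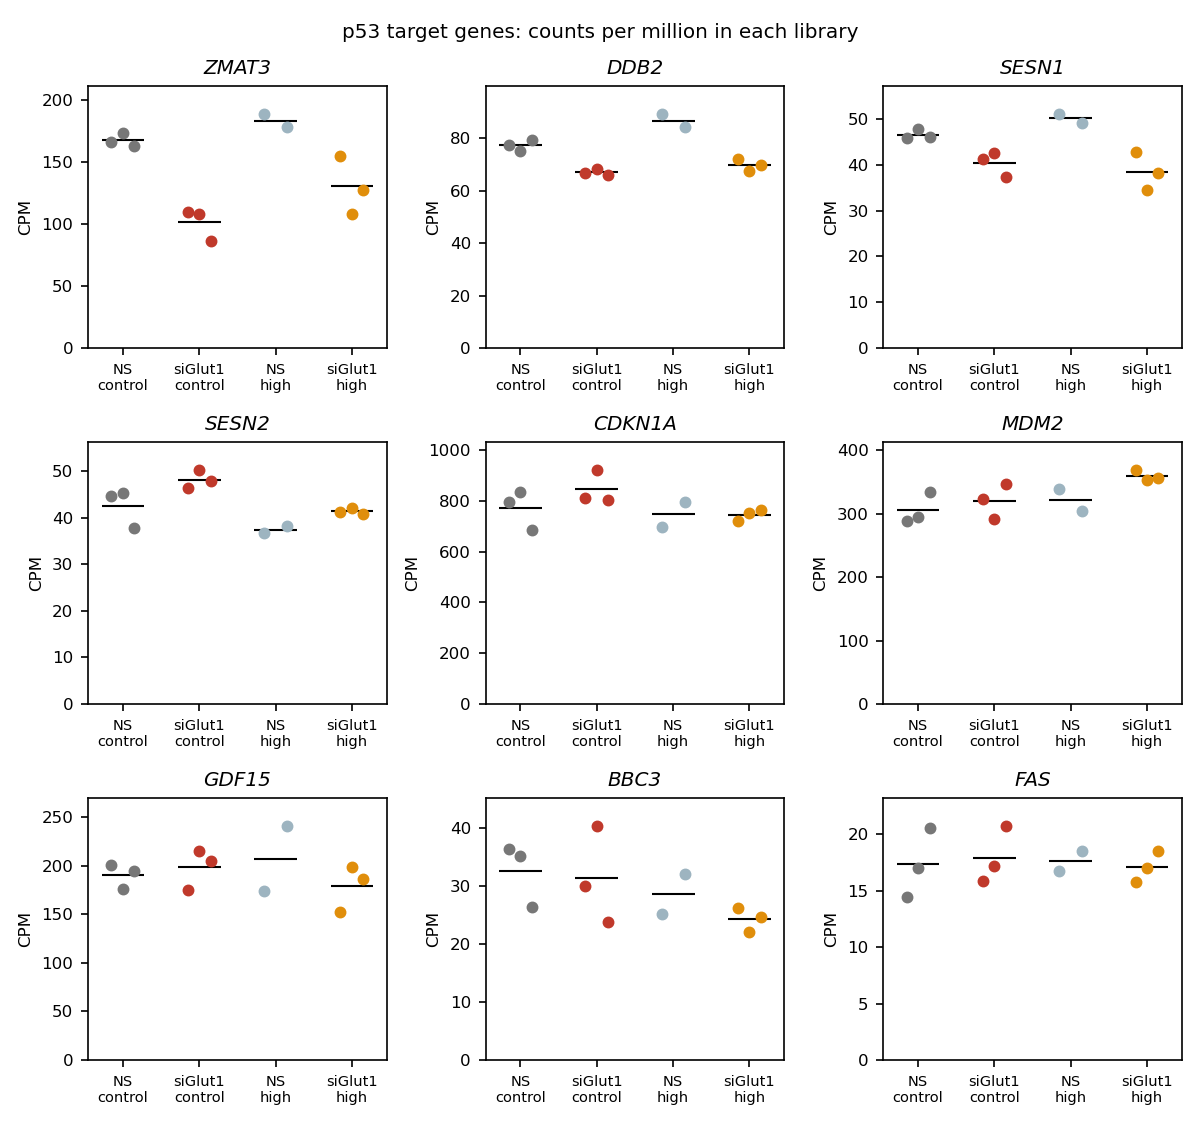
CPM of each of the 9 genes in each of the 11 libraries (points) with the group mean (bar), on axes that start at 0. ZMAT3, DDB2 and SESN1 are lower in every siGlut1 library than in any non-silencing library of the same medium, SESN2 is higher, and CDKN1A, GDF15, BBC3 and FAS overlap between siRNAs.

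Over the 9 genes, 1 fell and 0 rose with siGlut1 in control glucose (edgeR; ZMAT3), where 2.96% of all tested genes passed, 1.26% as lower and 1.7% as higher. In high glucose 2 fell and 0 rose (DDB2 and SESN1), against 4.11% of all genes, 1.64% as lower and 2.47% as higher. At an unadjusted p below 0.05 the counts were 4 and 3 of the 9 genes, beside 17.4% and 20.8% of all genes, and DESeq2 called 2 and 3, beside 7.96% and 9.7%. Averaged over both media 3 fell and 0 rose, where 14.4% of all genes passed, 6.49% as lower and 7.93% as higher. There, 4 had an unadjusted p below 0.05 (29.5% of all genes) and DESeq2 called 3 (20.2%). The median log2 fold change of the 9 genes was 0.05 in control glucose, -0.21 in high glucose and -0.08 on average, beside medians within 0.01 of 0 for all tested genes. The same 3 genes (ZMAT3, DDB2 and SESN1) had siGlut1 libraries below the non-silencing ones in both media, a pattern that 6.19% of all tested genes showed, and SESN2 alone of the 9 had the reverse, which 7.47% showed. Within 1 medium, 9.59% of all genes were lower and 11% higher without overlap in control glucose, and 21.8% and 22.6% in high glucose, where the non-silencing group has 2 libraries.

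**Figure D4:**
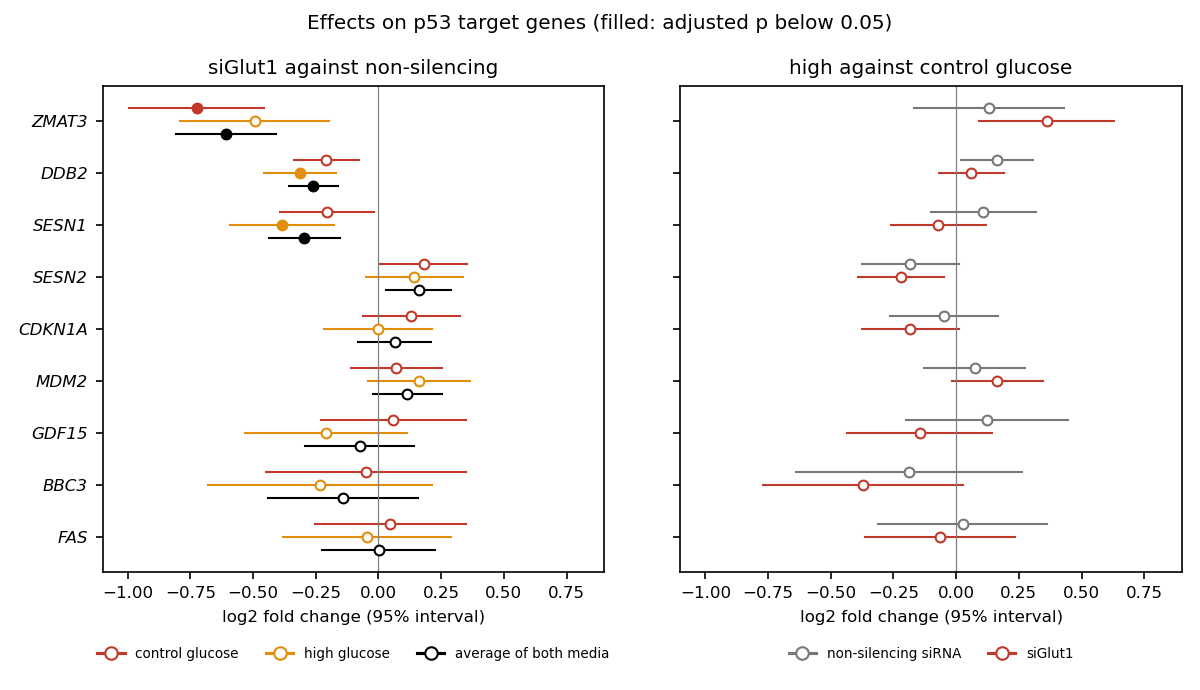
Log2 fold change of each gene with its 95% interval, on the left for the siRNA effect (siGlut1 over non-silencing) by medium and on average, on the right for high against control glucose with each siRNA. Filled points passed an adjusted p of 0.05: ZMAT3 in control glucose and on average, DDB2 and SESN1 in high glucose and on average, and no point on the right.

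High glucose gave no call among the 9 genes with either siRNA. With non-silencing siRNA, 0 of 9 passed in edgeR and 0 in DESeq2, and 1 gene had an unadjusted p below 0.05, beside 5.4% of all genes. That gene, DDB2, was higher by 0.16 on the log2 scale (adjusted p = 0.914). In that comparison 0% of all 14324 genes passed in edgeR and 0.23% in DESeq2. With siGlut1, 0 of 9 passed in edgeR and 0 in DESeq2, with 2 genes at an unadjusted p below 0.05, beside 0.014%, 3.57% and 15.2% of all genes. They were ZMAT3, which was 0.36 higher in high glucose (95% interval 0.09 to 0.63, adjusted p = 0.222), and SESN2, which was 0.22 lower (a difference of -0.22, 95% interval -0.39 to -0.05, adjusted p = 0.239). The siGlut1 comparison of the media shares its libraries with the siRNA comparisons above. The interaction, which asks whether the siRNA effect differed between the media, called 0 of 9 in edgeR and 0 in DESeq2, with 0 at an unadjusted p below 0.05, beside 0%, 0% and 2.75% of all genes. For ZMAT3 it was 0.23 ± 0.18 (95% interval -0.17 to 0.63, edgeR adjusted p = 0.999). The smaller ZMAT3 difference in high glucose is therefore not separated from the one in control glucose.

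The genes that act on p53 did not pass the edgeR test as reported here. Of 11 regulators, all tested, 0 were called in either medium or on average by edgeR, beside 2.96%, 4.11% and 14.4% of all genes. At an unadjusted p below 0.05 there were 1, 2 and 3, beside 17.4%, 20.8% and 29.5% of all genes. DESeq2 called 1, 0 and 2, beside 7.96%, 9.7% and 20.2%. MDM4, the partner of MDM2 that masks the p53 activation domain, differed by -0.09 on the log2 scale on average (edgeR adjusted p = 0.504). HIPK2, a kinase that phosphorylates p53, differed by -0.25 (adjusted p = 0.0667). It passed with DESeq2 (adjusted p = 0.0347), with the trend on gene length removed (-0.35, 0.0013), without non-silencing replicate 3 (-0.28, 0.043) and without siGlut1 replicate 1 in control glucose (-0.33, 0.0116). USP7, the protease that removes ubiquitin from both p53 and MDM2, differed by -0.01 (adjusted p = 0.905). These are transcript levels, and p53 protein was not measured.

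Other p53 targets moved in both directions. Of a wider list of 58 targets 54 were tested. In control glucose edgeR called 0 of them, with 10 at an unadjusted p below 0.05 and 3 called by DESeq2. The shares of all genes there were 2.96%, 17.4% and 7.96%. In high glucose edgeR called 1, with 16 unadjusted and 6 by DESeq2, beside 4.11%, 20.8% and 9.7% of all genes. The edgeR call was PGF, a placental growth factor that signals through FLT1, which rose by 0.53 ± 0.11 on the log2 scale (adjusted p = 0.0256). Its group means were 120.4 ± 5.5 CPM (n = 2) and 174 ± 8.3 CPM (n = 3). That call was lost without any 1 of the 5 high-glucose libraries. Averaged over both media 13 of 54 passed, 7 higher and 6 lower, with a list median of 0.04, beside 14.4% of all genes. There, 23 had an unadjusted p below 0.05 and DESeq2 called 16, beside 29.5% and 20.2% of all genes. The 13 fell to 2 without non-silencing replicate 1 in high glucose and to 4 without its replicate 3. They fell to 6 without siGlut1 replicate 3 and to 8 without siGlut1 replicate 2 in high glucose, and to 7 without siGlut1 replicate 1 in control glucose, and became 20 without non-silencing replicate 3 in control glucose. The list contains no member of the 9.

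The calls by role are those of the averaged comparison, where 14.4% of all genes passed. The arrest and feedback targets held 2 calls of 9 tested, both higher: the kinase PLK3 (0.32, edgeR adjusted p = 0.0357) and the repressor E2F7 (0.33, adjusted p = 0.0482). The apoptosis and autophagy targets held 5 of 19. The nuclease AEN (0.25) and the WAVE-complex protein CYFIP2 (0.19) were among the 3 that rose, while the decoy receptor TNFRSF10D (-0.45) and the autophagy regulator DRAM1 (-0.20) fell. All 3 calls among 14 repair and metabolism targets were lower. They were the fucosidase FUCA1 (-0.49), the ribonucleotide reductase subunit RRM2B (-0.24) and the ferredoxin reductase FDXR (-0.30). Of these 14 genes, 10 were negative and 4 positive on average. Of 12 other targets, PGF (0.46) and the KIT ligand KITLG (0.35) rose and IER5 (-0.19) fell. Of 3 targets that interferon also induces, the peptide transporter TAP1 rose, by 0.70 in control glucose (edgeR adjusted p = 0.0219) and 0.57 on average (adjusted p = 0.00426), with 0.45 in high glucose (adjusted p = 0.127), while FAS, which interferon can also induce, did not pass. The control-glucose call of TAP1 was lost without any 1 of 5 control-glucose libraries, non-silencing replicate 2 excepted (0.61 to 0.76, adjusted p from 0.0507 to 0.0697).

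The averaged calls of PGF and TAP1 held under all 18 alternatives, and those of the other 11 genes named by role each depended on at least 1 library. Without non-silencing replicate 1 in high glucose, 10 of them were lost, FDXR excepted (adjusted p from 0.0564 to 0.15). Without its replicate 3, PLK3, E2F7, TNFRSF10D, DRAM1, RRM2B, FDXR, IER5 and KITLG were lost (0.0535 to 0.147). Without siGlut1 replicate 2 in high glucose, PLK3, E2F7, DRAM1, IER5 and KITLG were lost (0.0717 to 0.107), without its replicate 3 these 5 and CYFIP2 (0.0664 to 0.0859), and without its replicate 1 E2F7 (0.0521). In control glucose, E2F7 and KITLG were lost without non-silencing replicate 1 or 2 and without siGlut1 replicate 1 or 3. PLK3 and DRAM1 were lost without non-silencing replicate 2 or siGlut1 replicate 3, CYFIP2 without replicate 1 of either siRNA, IER5 without these or siGlut1 replicate 3, and FDXR without siGlut1 replicate 1 (0.0514 to 0.0871 for all of these). No sign changed. E2F7 (0.073), CYFIP2 (0.0738) and KITLG (0.0641) also lost the call with the trend on gene length removed, and IER5 with no filter on low counts (0.0552).

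**Figure D5:**
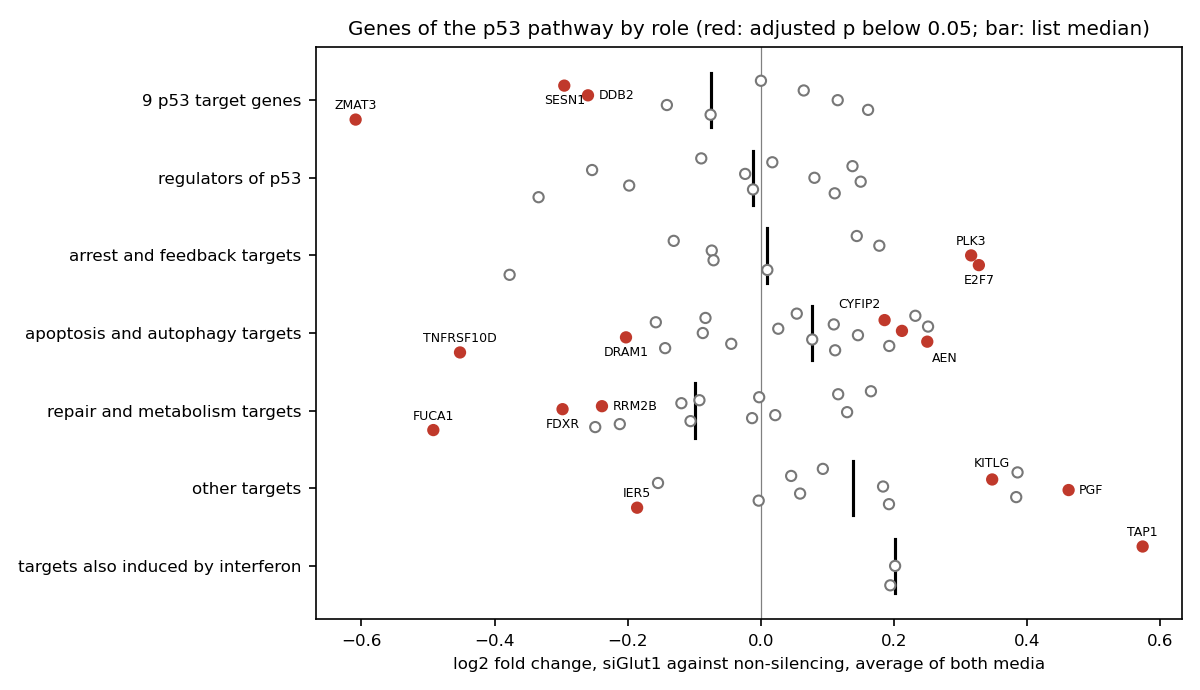
Log2 fold change of siGlut1 against non-silencing siRNA, averaged over both media, for the 9 genes and 6 lists of the p53 pathway (points are genes, the bar is the median of the list, vertical placement within a list carries no value). Filled points passed an adjusted p of 0.05: 3 of the 9 genes, all lower, none of the regulators, and targets in both directions.

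Partners of the 9 gene products were tested in the same way. Of 11 tested partners and relatives, 1 passed in each medium and 3 on average, beside 2.96%, 4.11% and 14.4% of all genes. At an unadjusted p below 0.05 there were 3, 4 and 5, beside 17.4%, 20.8% and 29.5%. DESeq2 called 2, 2 and 3, beside 7.96%, 9.7% and 20.2%. BAK1, a pore-forming protein of the mitochondrial outer membrane that acts downstream of BBC3, rose from 52.1 ± 3.7 to 70.7 ± 1.0 CPM (SD, n = 3 and 3) in control glucose. The log2 fold change was 0.44 there (edgeR adjusted p = 0.0126), 0.36 in high glucose (adjusted p = 0.0354) and 0.40 on average (adjusted p = 0.00123). The survival gene BCL2L1, whose product BBC3 binds, rose by 0.27 on average (adjusted p = 0.00678). CDKN1B (p27), the relative of CDKN1A, fell by 0.41 on average (adjusted p = 0.042). The high-glucose call of BAK1 was lost without either non-silencing library or siGlut1 replicate 2 or 3 of that medium (0.32 to 0.42, adjusted p up to 0.24), and without siGlut1 replicate 1 or 2 in control glucose (0.36, adjusted p = 0.0589 and 0.0531). The CDKN1B call was lost without any 1 of 9 libraries, siGlut1 replicate 1 in high glucose and replicate 2 in control glucose excepted (-0.44 to -0.34, adjusted p from 0.0534 to 0.129). The proteins that work with DDB2 and FAS did not pass: DDB1 differed by 0.01 (adjusted p = 0.904), FADD by 0.11 (adjusted p = 0.247) and CASP8 by 0.09 (adjusted p = 0.404).

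Because SESN2 and GDF15 also answer to ATF4, a list of 14 genes, made of ATF4 itself and targets of it, was set beside them. In each medium 1 of 14 passed, and 3 passed on average, all lower, beside 2.96%, 4.11% and 14.4% of all genes. At an unadjusted p below 0.05 there were 5, 5 and 9, beside 17.4%, 20.8% and 29.5% of all genes. DESeq2 called 2, 2 and 5, beside 7.96%, 9.7% and 20.2%. On average 9 of the 14 were negative and 5 positive. Among the positive ones were DDIT3 (0.29, edgeR adjusted p = 0.171) and TRIB3 (0.26, adjusted p = 0.137), named after their values were seen. ASNS, the asparagine synthetase, fell from 33.2 ± 1.4 to 19.1 ± 2.0 CPM (SD, n = 3 and 3) in control glucose (-0.80, edgeR adjusted p = 0.007) and by 1.02 in high glucose (adjusted p = 0.00297). PSAT1, of serine synthesis, fell by 0.36 and DDIT4, an inhibitor of mTORC1 like the sestrins, by 0.55 on average. Without non-silencing replicate 1 or 3 in high glucose, the high-glucose call of ASNS (-0.92 and -1.1, adjusted p = 0.0539 and 0.057) and the averaged call of PSAT1 (adjusted p = 0.0556 and 0.0595) were lost. The averaged call of DDIT4 was lost without any 1 of 8 libraries (-0.58 to -0.44, adjusted p from 0.0554 to 0.121), which are those 2, siGlut1 replicates 2 and 3 in high glucose, and non-silencing replicates 1 and 2 and siGlut1 replicates 1 and 3 in control glucose. SESN2 (0.16) and GDF15 (-0.08) did not pass on average.

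Cell cycle genes that CDKN1A is known to lower through the DREAM and RB repressors gave no call. Of 15 tested, edgeR called 0 in either medium and on average, beside 2.96%, 4.11% and 14.4% of all genes. At an unadjusted p below 0.05 there were 2, 1 and 3, beside 17.4%, 20.8% and 29.5%. DESeq2 called 0, 0 and 1, beside 7.96%, 9.7% and 20.2%. Their median log2 fold change was -0.27 in control glucose, -0.16 in high glucose and -0.24 on average, with 15, 11 and 13 of 15 negative. The medians of all tested genes were -0.007, -0.0005 and -0.004. TOP2A differed by -0.21 (adjusted p = 0.356) and MKI67 by -0.20 (adjusted p = 0.47) on average.

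The genes whose pattern over the 11 libraries was most like that of ZMAT3, by Pearson's correlation of log2 CPM, were CALD1 (0.973), TMEM181 (0.971), EPN2 (0.964), CMTM6 (0.963) and CYLD (0.957). These values describe libraries that fall into siRNA groups and share their depth, so that genes lowered by siGlut1 correlate with one another. CALD1, an actin-binding protein, fell by 0.57 on average (edgeR adjusted p = 0.00105). The mean of the 9 standardised patterns was most like LOC100507392 (0.980), EXOSC4 (0.948), ANKZF1 (0.946), WSB1 (0.945) and LOC100134868 (0.925). None of these 5 passed in the averaged siRNA comparison.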

How the data were processed

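RNA of all 12 labelled samples was measured by RNA-seq. The labels' protocols name RNeasy columns and both a TruSeq stranded mRNA kit and a SMARTER kit, without saying which library used which. Per the submitters' processing notes, the build was hg19 and DESeq2 was used. Not given in the sources used here: aligner, counting tool and use of strand. Counts, as deposited, are unnormalised whole numbers, and every count in the 11 columns used is even (0 odd values), for which no source gives a reason. The authors scaled the deposited RPKM by a library total 1.05 to 1.07 times the count sum. RPKM served here to compare levels between genes. The gene length in the deposited table was used for 1 alternative. No column of values lacked a sample in the labels (0).

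The 9 genes and all lists were chosen with earlier results of these data known, so no list is independent evidence. Some genes of the lists are not reported here and enter no count of a list. Of 23398 entries 23274 were analysed, leaving out genes of the Y chromosome and XIST. In R 4.3.3, edgeR 4.0.16 filterByExpr kept 14324 genes, TMM factors were 0.975 to 1.03, and 1 quasi-likelihood model held all 4 groups, with no replicate block (7 residual degrees of freedom). Tests were two-sided with Benjamini-Hochberg adjustment over all tested genes and a threshold of 0.05. The standard error is the log2 fold change over the square root of F, and the 95% interval uses the same degrees of freedom as the test. CPM used TMM-scaled totals, with a prior count of 2 on the log2 scale for the correlations. The procedure was tested on simulated data. Genes named besides the 9 are SLC2A1, up to 4 genes per list with the smallest adjusted p past the threshold or, where none passed, the 2 with the most counts, and 5 per pattern for likeness. MDM4, SESN3, RGS5, PDGFRB, CSPG4, DDB1, FADD, CASP8, DDIT3, TRIB3, AQP4, DES, KCNJ8, COL1A2 and DCN were added after values were seen. Of genes named for their counts alone, those of the averaged comparison are given. Alternatives were DESeq2 1.42.0 or its size factors, a block for the replicate number, other filters (none, or 1 CPM in 6 libraries), removal of a trend on gene length, only the groups compared, and leaving out libraries. Promoter windows come from a RefSeq table, with exon annotation from GENCODE.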

Additional observations from a re-analysis of the deposited data

How the results depend on the processing

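Of 846 values of the 9 genes under alternatives, 790 kept direction and side of the threshold, 18 lost their call, 7 gained one and 31 changed sign, none of them past the threshold and none larger than 0.133. The cause of a change was not tested. Replicate numbers are shared between groups. The deviations of same-numbered libraries correlated above 0.1 in 9 of 15 pairs and not in all (-0.25 to 0.535). Their median was 0.12, against a median of -0.08 for different numbers, and 8 of 11 libraries were closest to their own number. Whether the numbers mark pairs is not settled by these values. The main model took no pairing, and a block for the replicate number was run as an alternative. With the replicate block, the 9 genes gave 1 call in high glucose (SESN1 lost its own, adjusted p = 0.0612, as did BAK1, 0.0623, and IER5 on average, 0.0516, while HIPK2 on average gained one, 0.036), and the wider list 1 in control and 3 in high glucose. For the 9 genes, DESeq2 gave 2 calls in control glucose, and DESeq2 size factors and no filter gave 1 each in high glucose. Leaving out 1 library gave 0 to 3 in high glucose, and leaving out both control-glucose replicates 3 gave 1 glucose call with siGlut1 (BBC3, -0.53, adjusted p = 0.0496). ZMAT3 kept its call in control glucose under all 19 alternatives and gained one in high glucose with DESeq2 (adjusted p = 0.0174), the length trend removed (-0.64, 0.025) and both replicates 3 left out (0.0255). DDB2 in high glucose lost its call with the length trend removed (-0.26, 0.0645), and SESN1 with size factors (0.0508) and no filter (0.0544). For the wider list in control glucose, DESeq2 gave 3 calls, and no filter and the length trend 1 each. In high glucose DESeq2 gave 6, the 1 CPM filter 2, only the groups compared 8, both replicates 3 left out 10 and single libraries left out 0 to 5. On average, single libraries left out gave 2 to 20 and both replicates 3 left out 20. BAK1 in control glucose lost its call with only the groups compared (adjusted p = 0.0645), as did TAP1 there (0.0956) and CDKN1B on average (0.0611) without both replicates 3.

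Sign changes on leaving out 1 library gave these log2 ranges. For siGlut1 in control glucose, GDF15 ran from -0.00632 to 0.143, BBC3 from -0.277 to 0.113 and FAS from -0.0696 to 0.191. In high glucose, CDKN1A ran from -0.0868 to 0.0969 (no filter 0.00125, length trend 0.0232), GDF15 from -0.418 to 0.046 and FAS from -0.107 to 0.028. On average, GDF15 ran from -0.18 to 0.0528, FAS from -0.0589 to 0.0728 (-0.00193 with DESeq2 and with size factors, -0.00431 with the 1 CPM filter) and USP7 from -0.0385 to 0.0206. For glucose with non-silencing siRNA, CDKN1A ran from -0.147 to 0.0396, MDM2 from -0.0101 to 0.15, GDF15 from -0.133 to 0.335 and FAS from -0.0825 to 0.172. With siGlut1, SESN1 ran from -0.148 to 0.0024 and FAS from -0.141 to 0.0499 (0.0575 without both replicates 3).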

Other observations

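The libraries numbered 3 in control glucose were the lowest or highest of their group in several of the 9 genes, with either siRNA. BBC3 was lowest there, at 26.4 CPM against 36.4 and 35.2 with non-silencing siRNA and at 23.9 against 30.1 and 40.4 CPM with siGlut1. MDM2 was highest there, at 334 against 288 and 294 CPM and at 347 against 324 and 291 CPM, and so was FAS, at 20.6 against 14.4 and 17 CPM and at 20.7 against 15.9 and 17.2 CPM. CDKN1A was lowest in replicate 3 of both siRNAs, at 687 against 795 and 836 CPM with non-silencing siRNA. With siGlut1 it was at 805 against 813 and 921 CPM, so that replicates 1 and 3 lay close together. In high glucose FAS was also highest in replicate 3, at 18.6 against 16.8 CPM with non-silencing siRNA and at 18.5 against 15.8 and 17.04 CPM with siGlut1. The other 3 genes took the reverse order with non-silencing siRNA in high glucose. Replicate 3 was above replicate 1 there in BBC3 (32.1 against 25.1 CPM) and CDKN1A (797 against 697 CPM) and below it in MDM2 (304 against 339 CPM). These orders were noticed in the values and carry no test.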
